A study of Mus musculus with 34 samples.

Results

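Annexins are cytosolic proteins that bind acidic phospholipids when calcium rises, and several of them gather at torn plasma membrane, where they take part in resealing, in vesicle traffic and in the link between membrane and actin. S100 proteins are small dimers, most of which bind calcium, and some of them hold an annexin pair together. S100A10 binds ANXA2 in a complex that also serves as a surface site for plasminogen and its activators, S100A11 binds ANXA1, and S100A6 binds several annexins. In the injured central nervous system ANXA1 is best known as a ligand of formyl peptide receptors that limits leukocyte entry, and ANXA2 and ANXA5 are known from activated glia, macrophages and dying cells. The genes described here are Anxa1 to Anxa7, S100a6, S100a10 and S100a11, found by platform symbol and chosen with earlier results of these data known. They had 21 probe sets that named 1 gene and 1 probe set (1460351_at) that named S100a11 together with S100a11-ps and Gm12854, out of 45037 probe sets that are not array controls. Of the 21, 18 passed the filter on low values (at least 4 arrays with a log2 value of 4 or more) and covered 9 of the 10 genes. The 3 that did not pass were 1444016_at of Anxa1 and 1437691_at and 1437692_x_at of Anxa2, each at or near the lowest value of the data in the arrays. The signal of 1460351_at cannot be assigned to S100a11 alone, so it is described as the shared probe set and left out of all counts of members.

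The tissue was thoracic spinal cord of C57BL/6J mice (backcrossed for more than 20 generations) aged 8 to 12 weeks, either wild type (WT) or knockout (KO) for trkB.T1, the truncated, kinase-lacking receptor for BDNF made from the Ntrk2 gene. Cord was taken from control animals called sham or after a moderate contusion (at day 1, day 3 or day 7), in which an impact bruises the cord without cutting it. The 34 Affymetrix arrays, labelled biological replicates, held 4 sham WT, 4 sham KO, 5 day 1 WT, 4 day 1 KO, 4 day 3 WT, 5 day 3 KO, 4 day 7 WT and 4 day 7 KO samples. The control arrays carry codes beginning with Nav beside the word sham, and the labels do not say whether those animals were operated on. They also name no Cre driver or clone, and do not say whether a sample pools several animals.

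Values are GCRMA signals on the log2 scale, so a difference of 1 is a doubling, and the number of arrays limits the precision. They ran from 2.17 to 15.9, with array medians from 4.14 to 4.39, and 33.7% of values lay within 0.1 of the lowest, where differences cannot be measured. One Ntrk2 probe set read 10.01 to 10.85 in the WT arrays and 3.12 to 4.94 in KO arrays other than 1, the library labelled sham KO replicate 2, which read 9.46 (8.59 on another Ntrk2 set, where the other KO arrays read 2.83). The titles of day 1 WT replicates 1 and 2 conflict with their source and time labels (day 7 and sham), and the titles were followed. The spread within groups was smallest in day 7 KO, with a median SD of 0.0934 over all tested probe sets against 0.111 to 0.221 in the other 7 groups. Calls for single genes that were lost when the library labelled sham KO replicate 2 or both conflicting day 1 arrays were left out, or when the day 7 KO arrays were averaged to 1 sample, are given beside the gene.

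After contusion most annexin and S100 transcripts were higher than in sham cord in both genotypes. By the probe set with the highest mean for each gene, 7 of 9 genes were higher at day 1 in WT (Anxa1, Anxa2, Anxa3, Anxa4, Anxa7, S100a6 and S100a10), and Anxa5 joined them at day 3 and day 7. The same counts held in KO cord, with 7 genes at day 1 and 8 at day 3 and at day 7. The day 1 KO call of Anxa1 was lost without the library labelled sham KO replicate 2. Of all tested probe sets, 24%, 26.1% and 21.8% were higher at day 1, day 3 and day 7 in WT and 20.9%, 28.2% and 19.8% in KO. A share by gene was not counted. Anxa6, an annexin with a duplicated core that is known for membrane and actin contacts, was the exception. It was called in 1 of 6 comparisons, as lower, on a set that held 1 repeated value in 15 of 34 arrays. That set resolves few differences. Among the sets with the highest mean the largest rise was that of Anxa3 in WT at day 3, 13.6-fold. S100a6 in WT at day 3 was 11.8-fold higher. Anxa1 in KO at day 3 was 12.9-fold higher, and 7.96-fold with the library labelled sham KO replicate 2 left out. Because this is bulk tissue, more cells of a type that makes a transcript and more transcript per cell cannot be told apart.

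Counted over the 18 tested probe sets, 13 were called higher and 0 lower at day 1 in WT, where 24% of all tested probe sets were higher and 28.9% lower. A call here is a Benjamini-Hochberg adjusted p under 0.05 in limma, adjusted over 24573 probe sets. At day 3 in WT the members gave 13 higher and 1 lower (background 26.1% and 35.7%), and at day 7 they gave 11 higher and 0 lower (21.8% and 31.7%). In KO day 1 gave 12 higher and 0 lower (background 20.9% and 23.7%), day 3 gave 13 and 0 (28.2% and 36.7%), and day 7 gave 12 and 1 (19.8% and 27.4%). The median log2 difference of the 18 sets was 1.22, 1.57 and 0.94 at day 1, day 3 and day 7 in WT, where the median over all tested probe sets was -0.04, -0.07 and -0.08. In KO the members' medians were 0.82, 1.73 and 0.92 against -0.04, -0.07 and -0.07. Of the 18, 2 sets of Anxa4 passed the filter through injured arrays, 1457658_x_at with 8 and 1424176_a_at with 5 of 8 sham arrays under 4, so their rise was built into their choice. The 3 time points of a genotype share 1 set of sham arrays, so the counts are not independent of each other. The members were chosen with earlier results of these data known, which the background shares do not allow for.

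**Figure D1:**
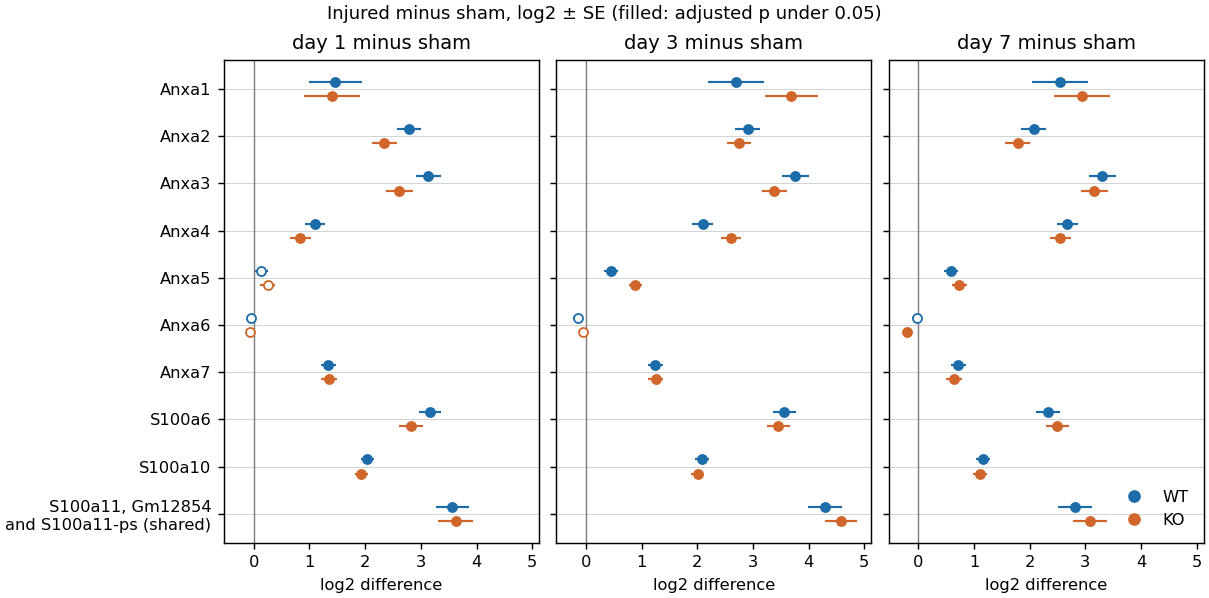
Log2 difference of injured minus sham cord (x axis) for the probe set that stands for each gene and for the shared probe set (y axis), at day 1, day 3 and day 7, in WT (blue) and KO (orange). Points are limma estimates, bars are ± 1 SE, and filled points have an adjusted p under 0.05: Anxa6 lies near 0 in all panels, and the shared probe set lies furthest to the right at day 1 and day 3.

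Markers of other cell types moved in the same arrays, and their part in these results was not tested. The mean log2 level of 5 wound macrophage markers (Arg1, Msr1, Gpnmb, Ccr2, Clec4d) lay between 2.36 and 3.04 in the sham arrays of both genotypes, 7.87 and 9.16 at day 1, 9.13 and 10.94 at day 3, and 7.90 and 8.87 at day 7, and all 5 were called higher at each time point in WT (5, 5 and 4 in KO). The mean of 7 microglia and macrophage markers lay between 6.71 and 7.36 in sham, between 7.12 and 7.96 at day 1, between 8.53 and 10.04 at day 3, and between 10.11 and 10.30 at day 7, with 4, 6 and 7 of 7 called higher in WT and 2, 6 and 7 in KO. P2ry12, a receptor of resting microglia, was lower at day 1 in both genotypes, by log2 differences of -2.80 in WT and -3.46 in KO. The 5 fibroblast and meninges markers ran from 6.30 to 9.62 in sham and reached 12.57 at day 7, with 3, 3 and 5 of 5 higher at day 1, day 3 and day 7 in WT and 0, 5 and 5 in KO. Of the 5 endothelial markers 5, 5 and 1 were higher in WT and 2, 5 and 1 in KO. Of the 6 neuron markers 4, 6 and 6 were lower in WT and 2, 6 and 5 in KO, and of 4 tested oligodendrocyte markers 2, 4 and 3 were lower in both genotypes. Of 5 astrocyte markers 2 were higher and 3 lower (Aqp4, Slc1a3 and Gja1) at day 1 in WT, and 2 higher and 2 lower in KO. At day 3 the astrocyte list had 2 higher and 1 lower in both genotypes, and at day 7 it had 3 higher and 0 lower. Of the 5 tested neutrophil markers 1 was called higher at each time, and Elane, a granule protease that marks neutrophil precursors, was under the filter in the arrays. The 6 skeletal muscle markers varied between arrays from a mean of 2.95 to 13.99 and were called lower in KO at day 1 and day 7 (6 of 6 each), the sham KO arrays reading 8.13 to 11.03. The 3 tested Schwann cell markers ran from 5.49 to 6.27 in sham WT and from 5.79 to 8.97 in sham KO, with 3, 2 and 3 higher in WT and 1 higher at each time in KO.

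RefSeq promoter windows (GRCm38.p6, from 250 bases before to 50 after a transcript start) were given for 7 of the 10 genes, 9 windows in all, and those of Anxa2 and S100a11 are shown here because they were the member windows that held the AP-1 letters TGAGTCA, the site bound by Fos and Jun proteins. The capitals mark those letters, and each stretch gives 30 bases on either side, read 5′ to 3′ on the plus strand. Anxa2 held them once, from base -95 to -89 counted from the start, at chr9:69453558-69453624, and S100a11 held them at bases -136 to -130 (chr3:93520330-93520396) and at bases -38 to -32 (chr3:93520428-93520494).
Anxa2 -95 to -89: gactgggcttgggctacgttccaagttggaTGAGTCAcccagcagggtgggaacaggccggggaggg
S100a11 -136 to -130: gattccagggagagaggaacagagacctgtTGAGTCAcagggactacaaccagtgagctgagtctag
S100a11 -38 to -32: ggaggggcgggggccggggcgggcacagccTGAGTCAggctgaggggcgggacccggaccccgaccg
On both strands the AP-1 letters were in 2 of the 9 member windows and in 5.2% of 32851 windows of the table. The letters GGGCGG (a GC box) were in 5 of 9 member windows against 35.7% of the table, and the STAT letters (TTC, 3 of any base, GAA) were in 0 of 9 against 8.3%. These are matches of letters, with no binding measured in these samples. The windows of Anxa7 overlap, and the same GC box site lies in both, so the member windows are not all separate. S100a11 and S100a10 are neighbours in the RefSeq order of genes, with 0 protein-coding genes and 1 gene of another type between them.

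Anxa1, the gene of the formyl peptide receptor ligand, was higher at all 3 times after injury and had the largest standard errors of the members. In sham WT cord it read 7.43, 8.76, 8.50 and 7.57, and in sham KO cord 8.04, 5.34, 8.31 and 8.02. The library labelled sham KO replicate 2 lay far below the other 3 of its group. At day 1 the WT arrays read 9.52, 9.68, 9.06, 9.43 and 9.95, all above sham WT, and the KO arrays 9.61, 8.97, 8.20 and 8.57, of which replicate 3 lay within the range of sham KO. At day 3 the values were 10.75, 10.89, 11.40 and 9.96 in WT and 11.76, 10.10, 12.35, 11.24 and 10.12 in KO. The day 7 values were 10.51, 9.99, 10.95 and 10.96 in WT and 10.41, 10.36, 10.40 and 10.29 in KO. Day 3 and day 7 did not overlap sham in either genotype.

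Against sham, Anxa1 in WT was higher by 1.47 ± 0.48 (log2 difference ± SE) at day 1 (adjusted p = 0.0111), by 2.69 ± 0.50 at day 3 and by 2.54 ± 0.50 at day 7. In KO the differences were 1.41 ± 0.50 (adjusted p = 0.0236), 3.69 ± 0.48 and 2.94 ± 0.50. With the library labelled sham KO replicate 2 left out, the KO differences were 0.72, 2.99 and 2.24, and the call at day 1 was lost (adjusted p = 0.187). That call was also lost without day 1 KO replicate 1 (adjusted p = 0.0939). Between day 1 and day 3 Anxa1 rose by 2.28 ± 0.48 in KO (adjusted p = 0.000297), while in WT the step was 1.22 ± 0.48 and missed the threshold (adjusted p = 0.0561). From day 3 to day 7 neither genotype passed. The other probe set of the gene, 1444016_at, read the lowest value of the data in 26 of 34 arrays.

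Anxa2, which carries plasminogen activators on the surface of endothelium and macrophages, reached its raised level at day 1 and partly came down by day 7. On 1419091_a_at the sham arrays read 8.69, 8.97, 9.45 and 9.14 in WT and 9.28, 8.98, 9.34 and 9.44 in KO. The day 1 arrays read 12.08, 11.70, 11.61, 12.17 and 11.70 in WT and 12.00, 11.50, 11.28 and 11.64 in KO. No injured array at any time overlapped sham. The day 3 arrays read 11.80, 12.39, 12.22 and 11.44 in WT and 11.98, 11.57, 12.51, 12.47 and 11.51 in KO, and the day 7 arrays 11.25, 10.67, 11.12 and 11.52 in WT and 11.04, 11.04, 11.09 and 11.01 in KO. The rise over sham was 6.91-fold at day 1, 7.47-fold at day 3 and 4.21-fold at day 7 in WT, the day 1 value being a log2 difference of 2.79 ± 0.21 (adjusted p = 1.18e-11). In KO it was 5.08-fold, 6.72-fold and 3.45-fold. The day 1 to day 3 step was not called in either genotype, and the day 3 to day 7 step was a fall of -0.82 ± 0.22 in WT (adjusted p = 0.00937) and -0.96 ± 0.21 in KO (adjusted p = 0.00135, and 0.195 with day 7 KO averaged to 1 sample). The WT fall missed the threshold without day 3 WT replicate 2, where it was -0.68 (adjusted p = 0.0534).

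S100a10, the partner that holds the ANXA2 tetramer together, rose early and had come partly down by day 7. Its sham arrays read 11.10, 11.18, 11.27 and 11.15 in WT and 11.24, 11.12, 11.45 and 11.25 in KO on 1456642_x_at. After injury the WT arrays read 12.99, 13.43, 13.09, 13.50 and 13.03 at day 1, 13.22, 13.57, 13.32 and 12.93 at day 3 and 12.40, 12.35, 12.55 and 12.06 at day 7. The KO arrays read 13.40, 13.06, 13.12 and 13.21 at day 1, 13.35, 13.06, 13.40, 13.23 and 13.34 at day 3 and 12.33, 12.45, 12.34 and 12.37 at day 7. All injured arrays lay above all sham arrays, and all day 7 arrays lay between the sham arrays and those of day 1 and day 3. The log2 difference from sham was 2.04 ± 0.12 at day 1, 2.09 ± 0.12 at day 3 and 1.17 ± 0.12 at day 7 in WT. In KO it was 1.93 ± 0.12, 2.01 ± 0.12 and 1.11 ± 0.12. The fall from day 3 to day 7 was called in both genotypes, with adjusted p = 3.76e-06 for -0.92 ± 0.12 in WT and 1.45e-06 for -0.90 ± 0.12 in KO. Its other sets 1416762_at and 1439348_at were also higher at day 1 and day 3, but the dim 1439348_at was not called at day 7, with differences of 0.37 in WT and 0.23 in KO.

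**Figure D2:**
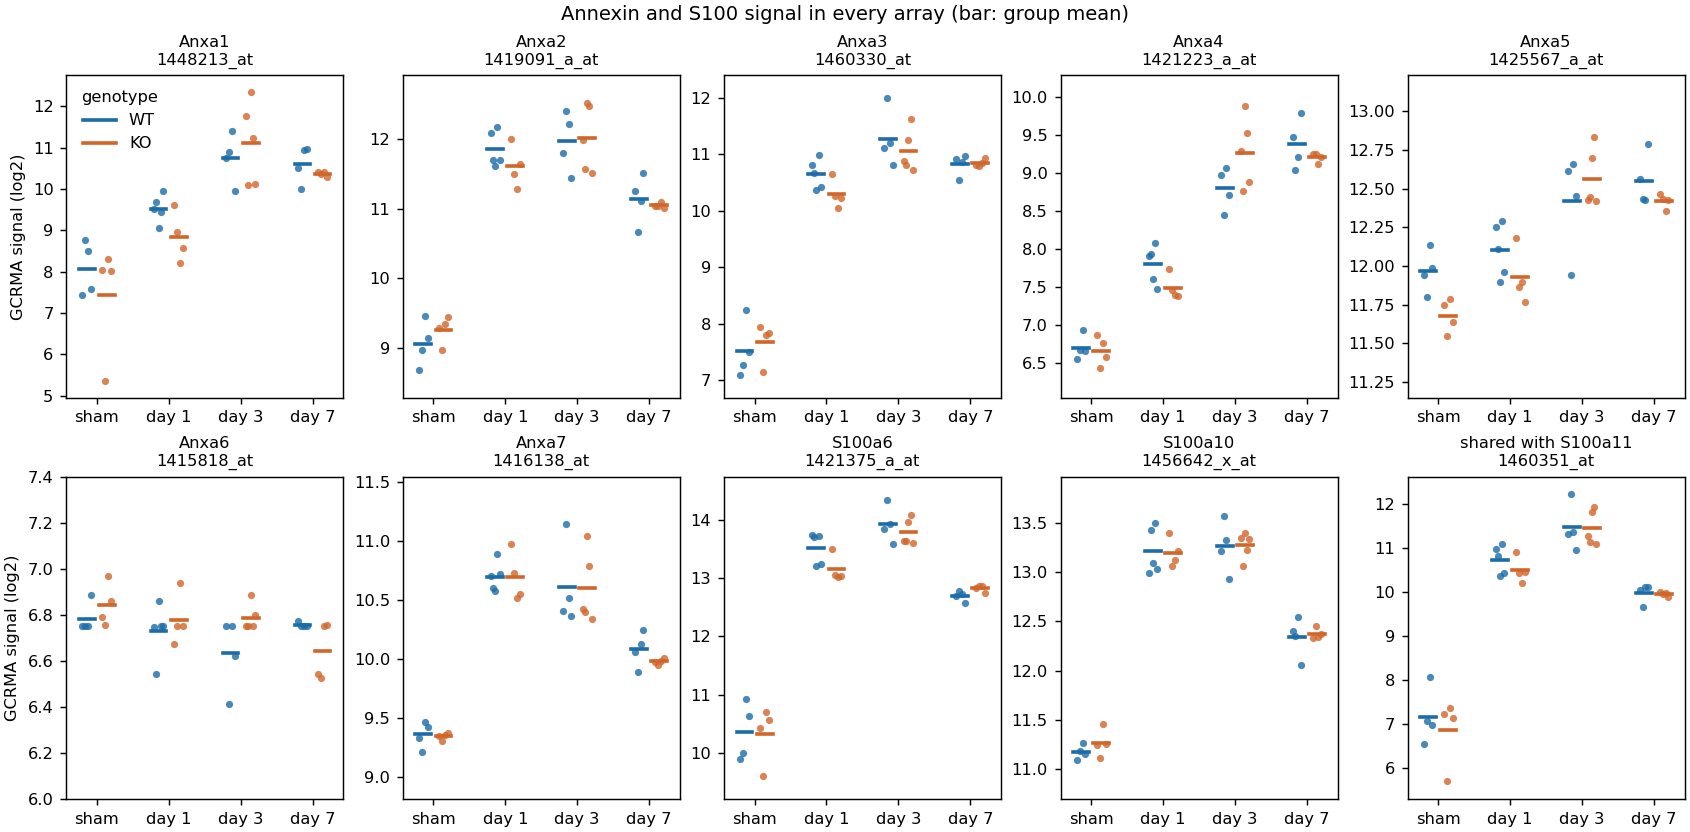
GCRMA signal on the log2 scale (y axis, a separate range in each panel) for sham, day 1, day 3 and day 7 (x axis), for the 9 genes and the shared probe set. Each point is 1 array, bars are group means, blue is WT and orange is KO: Anxa2, S100a6 and S100a10 are highest at day 1 and day 3 and lower at day 7, Anxa4 and Anxa5 have their lowest injured values at day 1, and many Anxa6 arrays sit on 1 repeated value.

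Whether the partners changed by equal amounts was asked with the difference of their signals within each array, compared with sham by an exact two-sided permutation test (12 tests, Benjamini-Hochberg adjusted). The level of this difference depends on the probes and has no meaning of its own; only its change does. For Anxa2 minus S100a10 the sham arrays gave -2.11 ± 0.26 (SD, n = 4) in WT and -2.01 ± 0.15 (SD, n = 4) in KO. Anxa2 gained on S100a10 by 0.75 at day 1, 0.81 at day 3 and 0.91 at day 7 in WT (exact p = 0.0159, 0.0286 and 0.0286, adjusted p = 0.0429 for each). In KO the gain was 0.74 at day 3 (exact p = 0.0238) and 0.68 at day 7 (exact p = 0.0286), both with an adjusted p of 0.0429, and at day 1 it was 0.41 and missed the threshold (exact p = 0.0571, adjusted p = 0.0762). With 4 against 4 arrays the smallest exact p is 0.0286, and with 5 against 4 it is 0.00794. These gains depended on the S100a10 probe set (an alternative chosen after seeing the data). With 1416762_at in its place they were 0.39, 0.54 and 0.79 in WT (adjusted p = 0.0476, 0.049 and 0.049 by the exact test) and -0.011, 0.39 and 0.51 in KO, where day 3 was no longer called (exact test, adjusted p = 0.119). With the dim 1439348_at they were 0.57, 1.33 and 1.71 in WT and 0.34, 1.13 and 1.56 in KO, and the day 1 KO value was again not called. That set read 4.08 to 4.36 in sham. It held the same value of 4.36 in 6 of 34 arrays, most of them from day 7. It thus resolves little of any change in S100a10 at day 7, and the size of these day 7 gains is uncertain. Unequal change shows no more than that: which probe set responds more steeply to its transcript was not tested.

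For Anxa1 minus the shared probe set the opposite held early after injury. The difference was 0.89 ± 0.55 (SD, n = 4) in sham WT and 0.56 ± 0.62 (SD, n = 4) in sham KO, and it changed by -2.10 at day 1 in WT (exact p = 0.00794) and by -1.61 at day 3 (exact p = 0.0286), both with an adjusted p of 0.0429. In KO the change was -2.21 at day 1 (exact p = 0.0286, adjusted p = 0.0429) and -0.89 at day 3, which missed the threshold (exact p = 0.111, adjusted p = 0.133). At day 7 the changes were -0.27 in WT (exact p = 0.457) and -0.15 in KO (exact p = 0.657). At day 7 the WT arrays gave 0.46, 0.34, 0.82 and 0.86, within or near the sham WT range of 0.44 to 1.67. The sham KO arrays gave 0.80, -0.36, 0.94 and 0.86, and the day 7 KO arrays 0.41, 0.39, 0.43 and 0.40. The value of -0.36 was that of the library labelled sham KO replicate 2. With this library left out, the KO changes were -2.52, -1.20 and -0.46. All day 3 and day 7 KO arrays, up to 0.54, then lay below the sham KO arrays. The KO results at day 3 and day 7 thus depend on this library.

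**Figure D3:**
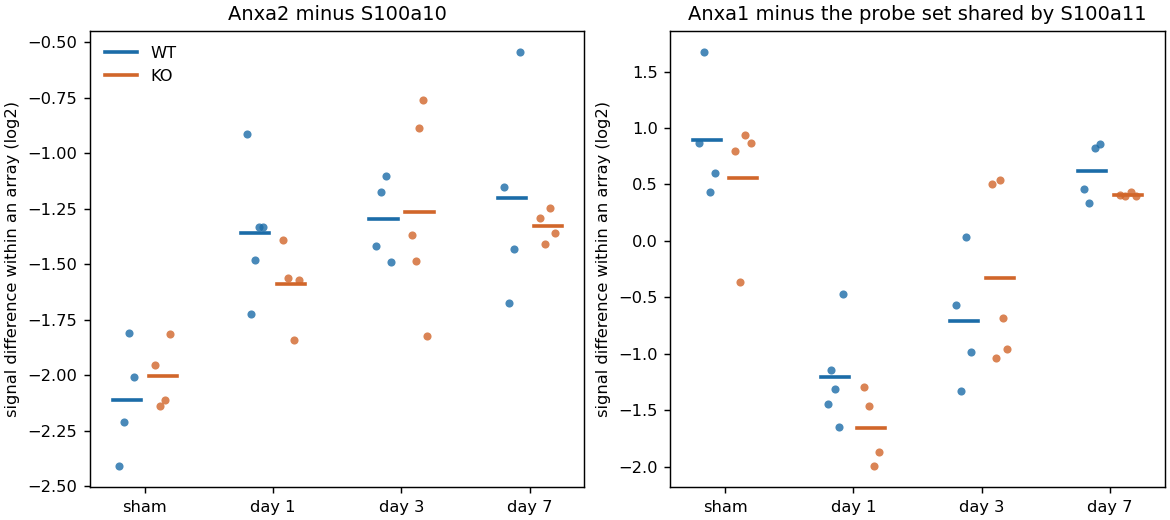
Difference of log2 signals of partner genes within each array (y axis), Anxa2 minus S100a10 on the left and Anxa1 minus the shared probe set on the right, for sham, day 1, day 3 and day 7 (x axis). Each point is 1 array and bars are group means, blue for WT and orange for KO: the left panel rises from about -2.11 in sham WT to -1.20 at day 7 WT, and the right panel falls to -1.21 at day 1 WT and returns to 0.62 at day 7 WT.

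Anxa3, an annexin known from neutrophil granules and microglia, showed the largest rise among the annexins at day 1 and stayed up. Its sham arrays on 1460330_at read 7.09, 7.27, 8.23 and 7.49 in WT and 7.95, 7.14, 7.81 and 7.83 in KO. The day 1 arrays read 10.82, 10.68, 10.37, 10.99 and 10.42 in WT and 10.65, 10.26, 10.06 and 10.22 in KO, all above the highest sham array of either genotype. The day 3 arrays read 11.11, 12.00, 11.20 and 10.82 in WT and 10.89, 10.80, 11.25, 11.64 and 10.73 in KO, and the day 7 arrays 10.92, 10.54, 10.87 and 10.98 and 10.81, 10.80, 10.84 and 10.93. Injured and sham arrays did not overlap at any time. The rise over sham in WT was 8.79-fold at day 1 (log2 3.14 ± 0.22, adjusted p = 2.74e-12), 13.6-fold at day 3 and 9.91-fold at day 7. In KO it was 6.13-fold, 10.4-fold and 8.96-fold. The step from day 1 to day 3 was 0.76 ± 0.22 in KO (adjusted p = 0.0061) and 0.62 ± 0.22 in WT (adjusted p = 0.0371). The WT step was lost when any of day 3 WT replicates 2 and 3 or day 1 WT replicates 2, 3 and 5 was left out (0.39 without day 3 WT replicate 2, adjusted p = 0.195), and when day 1 WT replicates 1 and 2 were left out together (adjusted p = 0.0619). The day 3 to day 7 step was not called in either genotype.

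Anxa4, an annexin known from epithelia and exocrine cells, rose in steps. On 1421223_a_at the sham arrays read 6.55, 6.67, 6.94 and 6.65 in WT and 6.86, 6.44, 6.77 and 6.57 in KO. The WT arrays read 7.90, 7.93, 7.60, 8.07 and 7.47 at day 1, 8.97, 8.45, 9.07 and 8.71 at day 3 and 9.48, 9.04, 9.21 and 9.79 at day 7. The KO arrays read 7.74, 7.46, 7.39 and 7.38 at day 1, 9.29, 8.77, 9.89, 9.52 and 8.88 at day 3 and 9.25, 9.26, 9.11 and 9.21 at day 7. In both genotypes all day 1 arrays lay above sham and all day 3 arrays lay above day 1. The difference from sham was 1.10 ± 0.18, 2.10 ± 0.19 and 2.68 ± 0.19 in WT and 0.83 ± 0.19, 2.61 ± 0.18 and 2.55 ± 0.19 in KO. From day 1 to day 3 it rose by 1.00 ± 0.18 in WT and 1.78 ± 0.18 in KO (adjusted p = 0.000107 and 4.56e-09). From day 3 to day 7 it rose further in WT, by 0.58 ± 0.19 (adjusted p = 0.0295), while the KO step was -0.06 ± 0.18. The WT step was lost without day 3 WT replicate 2 or 4 or without day 7 WT replicate 1 or 4, with a lowest value of 0.44 and an adjusted p of 0.12 without day 7 WT replicate 4. Its other sets were dim in sham, 1424176_a_at reading 3.40 to 3.97 in WT and up to 5.08 in KO and 1457658_x_at reading 2.84 to 3.66 over both, so the sizes of their differences rest on a baseline under the filter. Those differences at day 1, day 3 and day 7 were 2.09, 3.32 and 3.92 in WT and 0.81, 2.90 and 2.96 in KO for 1424176_a_at, and 0.92, 1.56 and 1.79 in WT and 0.52 (not called), 1.85 and 1.80 in KO for 1457658_x_at.

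Anxa5, the phosphatidylserine binder used as a probe of dying cells, had the smallest rise among the genes called higher at day 3 in both genotypes and at day 7 in WT, while at day 7 in KO that of Anxa7 was smaller. On 1425567_a_at the sham arrays read 11.94, 11.80, 12.13 and 11.99 in WT and 11.75, 11.55, 11.79 and 11.64 in KO, and the day 1 arrays 12.25, 12.11, 11.90, 12.29 and 11.96 in WT and 12.18, 11.86, 11.90 and 11.77 in KO. Day 1 overlapped sham in both genotypes, and the differences of 0.14 ± 0.12 and 0.25 ± 0.13 were not called (adjusted p = 0.362 and 0.118). At day 3 the arrays read 12.61, 11.94, 12.66 and 12.46 in WT and 12.43, 12.45, 12.70, 12.83 and 12.42 in KO, and at day 7 12.56, 12.43, 12.43 and 12.79 and 12.47, 12.44, 12.35 and 12.43. Day 3 WT replicate 2 lay within the sham WT range, while the other day 3 and day 7 arrays lay above the sham arrays of their genotype. The difference was 0.45 ± 0.13 at day 3 in WT (adjusted p = 0.00319), 0.59 ± 0.13 at day 7 in WT, and 0.89 ± 0.12 and 0.74 ± 0.13 in KO.

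Anxa6 showed little change in its signal. Its set 1415818_at held the same value of 6.75 in 15 of 34 arrays, and 1442288_at held 4.04 in 15, so both sets resolve few differences. The group means of 1415818_at ran from 6.63 ± 0.16 (SD, n = 4) in day 3 WT to 6.84 ± 0.09 (SD, n = 4) in sham KO, and all injured groups overlapped sham. The 1 call was a difference of -0.20 ± 0.08 at day 7 in KO (adjusted p = 0.0333), lost when any of day 7 KO replicates 1 and 2 or sham KO replicates 3 and 4 was left out (adjusted p from 0.065 to 0.118), and when the day 7 KO arrays were averaged to 1 sample (0.26). The set 1429246_a_at was lower at day 3 in WT, by 0.50 (a log2 difference of -0.50, adjusted p = 0.048). Its WT differences of -0.34 at day 1 and -0.45 at day 7 were not called. In KO its differences were -0.14 at day 1 and -0.50 at day 7, neither called, though its day 7 KO arrays did not overlap sham KO. Its day 3 KO mean, 5.58, was that of sham KO, 5.58. The sets 1429247_at and 1442288_at were not called against sham.

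Anxa7, also named synexin and known for membrane fusion and calcium release, was highest at day 1 and day 3 on its set with the highest mean. On 1416138_at the sham arrays read 9.33, 9.21, 9.47 and 9.42 in WT and 9.34, 9.30, 9.36 and 9.37 in KO. After injury the WT arrays read 10.70, 10.60, 10.57, 10.89 and 10.72 at day 1, 10.40, 11.14, 10.51 and 10.36 at day 3 and 10.06, 9.89, 10.12 and 10.25 at day 7. The KO arrays read 10.97, 10.73, 10.52 and 10.55 at day 1, 10.42, 10.40, 11.04, 10.78 and 10.34 at day 3 and 9.97, 9.95, 9.98 and 10.01 at day 7. Sham, day 7 and the pair of earlier times formed 3 ranges with no overlap between them in either genotype. The rise over sham was 2.53-fold, 2.37-fold and 1.65-fold in WT and 2.55-fold, 2.39-fold and 1.55-fold in KO. From day 3 to day 7 it fell, with log2 steps of -0.53 ± 0.14 in WT and -0.62 ± 0.13 in KO (adjusted p = 0.0088 and 0.00115). With day 7 KO averaged to 1 sample the KO fall and the KO rise over sham at day 7 missed the threshold (adjusted p = 0.186 and 0.0645). The WT step missed the threshold without day 3 WT replicate 2 (-0.35, adjusted p = 0.0681). The other 2 sets rose less. Over the 3 sets the WT difference at day 1 ran from 0.57 to 1.34, and at day 7 only 1 of 3 was called in WT. On 1416137_at the means of sham, day 1, day 3 and day 7 were 6.86, 7.53, 7.07 and 7.02 in WT. In KO they were 6.96, 7.45, 7.13 and 7.02, and its day 3 and day 7 arrays overlapped sham in both genotypes. On 1438764_at the means were 6.89, 7.46, 7.25 and 7.14 in WT and 6.64, 7.43, 7.17 and 7.00 in KO. The fall from day 3 to day 7 given above is that of 1416138_at.

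S100a6, or calcyclin, a partner of several annexins known from astrocytes and dividing cells, was raised at all 3 times and lower at day 7 than before. On 1421375_a_at the sham arrays read 9.90, 9.99, 10.92 and 10.63 in WT and 10.43, 9.61, 10.71 and 10.56 in KO. After injury the WT arrays read 13.74, 13.70, 13.20, 13.72 and 13.24 at day 1, 13.84, 14.34, 13.93 and 13.58 at day 3 and 12.70, 12.77, 12.72 and 12.57 at day 7. The KO arrays read 13.50, 13.05, 13.02 and 13.04 at day 1, 13.64, 13.63, 13.97, 14.08 and 13.60 at day 3 and 12.83, 12.86, 12.87 and 12.75 at day 7. No injured array overlapped sham, and the day 7 arrays lay below all day 1 and day 3 arrays. The difference from sham was 3.16 ± 0.20, 3.56 ± 0.21 and 2.33 ± 0.21 in WT and 2.82 ± 0.21, 3.46 ± 0.20 and 2.50 ± 0.21 in KO. The step from day 1 to day 3 was called in KO (0.63 ± 0.20, adjusted p = 0.0102) and not in WT (0.40 ± 0.20, adjusted p = 0.131). From day 3 to day 7 both fell, by steps of -1.23 ± 0.21 in WT and -0.96 ± 0.20 in KO, the KO step being lost with day 7 KO averaged to 1 sample (adjusted p = 0.161).

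The shared probe set 1460351_at, which cannot be assigned among S100a11, S100a11-ps and Gm12854, rose more than any set naming 1 member at day 1 and day 3. Its sham arrays read 6.56, 7.08, 8.06 and 6.98 in WT and 7.24, 5.71, 7.37 and 7.15 in KO, where the library labelled sham KO replicate 2 was again the lowest. After injury the WT arrays read 10.97, 10.82, 10.37, 11.09 and 10.43 at day 1, 11.32, 12.22, 11.36 and 10.95 at day 3 and 10.05, 9.65, 10.12 and 10.10 at day 7. The KO arrays read 10.90, 10.43, 10.20 and 10.44 at day 1, 11.26, 11.13, 11.81, 11.92 and 11.09 at day 3 and 10.01, 9.96, 9.97 and 9.89 at day 7. All injured arrays lay above all sham arrays. The difference from sham was 3.56 ± 0.29, 4.29 ± 0.31 and 2.81 ± 0.31 in WT and 3.62 ± 0.31, 4.58 ± 0.29 and 3.09 ± 0.31 in KO. With the library labelled sham KO replicate 2 left out, the KO differences were 3.24, 4.19 and 2.70. From day 3 to day 7 it fell by steps of -1.48 ± 0.31 in WT and -1.49 ± 0.29 in KO (adjusted p = 0.000975 and 0.000436, and 0.135 in KO with day 7 KO averaged to 1 sample).

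The steps between successive times were set side by side by their calls. On the sets with the highest mean, Anxa2, Anxa7, S100a6 and S100a10 fell from day 3 to day 7 in both genotypes. No fall was called for Anxa1, Anxa3, Anxa4 or Anxa5 in either. The 2 groups of genes were not compared by a test, and the Anxa1 step in KO, -0.75 ± 0.48 and not called, was as far below 0 as some called ones. Over the 18 sets, 1 was higher and 6 lower in WT (background 8.64% and 10.5%), and 0 were higher and 7 lower in KO (16.2% and 14.2%). In KO the 7 calls came down to 2 when the 4 day 7 KO arrays, which vary little, were averaged to 1 sample, and by gene only S100a10 was still called lower. In WT the 7 calls became 4 without day 3 WT replicate 2. From day 1 to day 3, 3 sets were higher and 1 lower in WT (11.7% and 15.4%), and 7 were higher and 2 lower in KO (19.4% and 27.2%). By gene, Anxa3 and Anxa4 rose over that step in WT, and Anxa1, Anxa3, Anxa4, Anxa5 and S100a6 in KO.

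**Figure D4:**
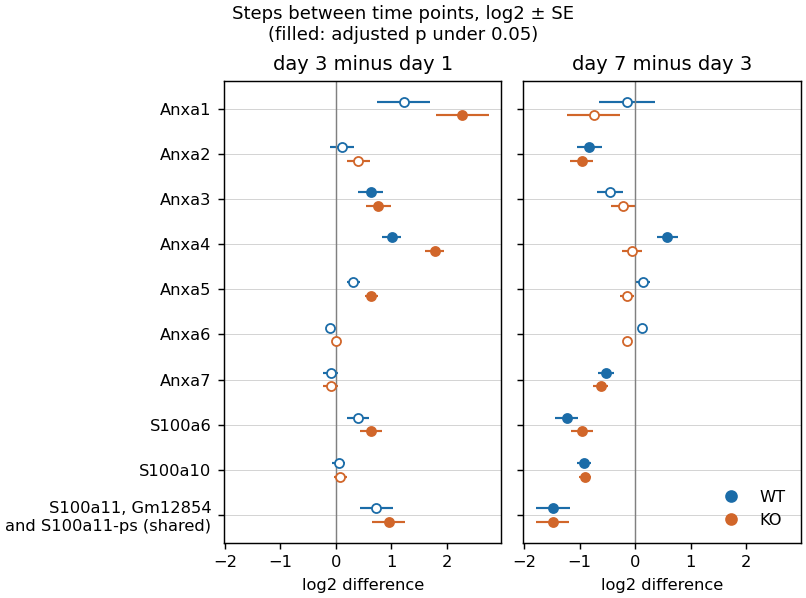
Log2 difference between successive times (x axis), day 3 minus day 1 on the left and day 7 minus day 3 on the right, for the 9 genes and the shared probe set (y axis). Points are limma estimates with ± 1 SE, blue for WT and orange for KO, filled where the adjusted p is under 0.05: on the right, Anxa2, Anxa7, S100a6, S100a10 and the shared probe set lie below 0 in both genotypes and Anxa4 above 0 in WT.

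The genotypes were compared in 4 conditions, in their mean and in the difference of each change between genotypes, and 0 of the 18 member sets passed in any of these 10 comparisons. The background was low as well: 0.0529% of tested probe sets in sham, 0.549% at day 1, 0.0366% at day 3, 0.0407% at day 7 and 0.126% for the mean of the 4. For the injury change between genotypes it was 0.0692% at day 1, 0% at day 3 and 0.00407% at day 7. For the step from day 1 to day 3 it was 0.452%, and for that from day 3 to day 7 0.00814%. At an unadjusted p under 0.05, 3 member sets passed in sham, 0 at day 1, 3 at day 3, 0 at day 7 and 1 in the mean. Of the changes, 1 passed at each of the 3 times and 2 for each of the steps. The share of all tested probe sets under this unadjusted threshold was not counted. The unadjusted counts thus have no background, and the shares above, at an adjusted p, cannot serve as one.

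The largest differences between genotypes were those of Anxa1 and Anxa4. KO minus WT for Anxa1 was -0.64 in sham (95% interval -1.66 to 0.39), -0.69 at day 1 (-1.67 to 0.28), 0.36 at day 3 (-0.61 to 1.34) and -0.24 at day 7 (-1.27 to 0.79). Its change from sham to day 3 was larger in KO by 1.00 (-0.41 to 2.42, adjusted p = 0.826) and its step from day 1 to day 3 by 1.06 (-0.32 to 2.43, adjusted p = 0.495). Its intervals were the widest of the members. With the library labelled sham KO replicate 2 left out, the sham difference of Anxa1 was 0.06, and that of the change to day 3 was 0.31. For Anxa4 the difference at day 3 was 0.47 (interval 0.10 to 0.83, adjusted p = 0.405), and its step from day 1 to day 3 was larger in KO by 0.77 ± 0.25 (adjusted p = 0.196). Its set 1424176_a_at was 0.85 higher in sham KO (adjusted p = 0.708) and its rise at day 1 was smaller in KO, by a log2 difference of -1.28 ± 0.38 (adjusted p = 0.416). For Anxa5 the sham difference was -0.29 ± 0.13 (adjusted p = 1). That Anxa1, Anxa5 and S100a6 passed in 1 genotype alone for the step from day 1 to day 3 is thus not shown to be a difference between genotypes.

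**Figure D5:**
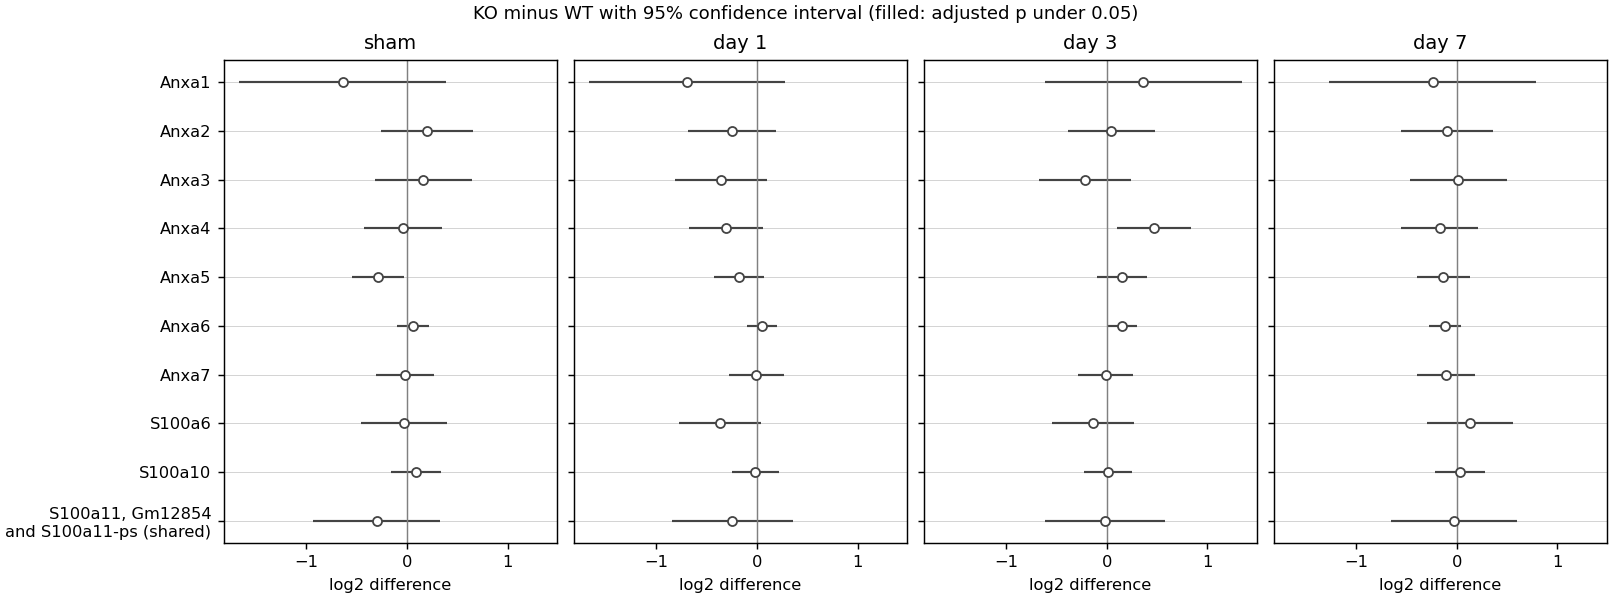
KO minus WT difference on the log2 scale (x axis) for sham, day 1, day 3 and day 7 and for the 9 genes and the shared probe set (y axis). Points are limma estimates and bars 95% confidence intervals, and open points have an adjusted p of 0.05 or more: all points are open, and the Anxa1 intervals are the widest.

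The genes whose 8 group means followed a member most closely were found over 11989 other genes by the root mean square distance in log2 units, each gene taken about its own mean. This is a description over 8 group means. Nearest to Anxa1 were Col5a2 (0.170), Rbm47 (0.211) and Mxra8 (0.229), of which Col5a2 encodes a fibrillar collagen chain. Nearest to Anxa2 were Car13 (0.119), Parp3 (0.129) and Fosl2 (0.158), a Fos family gene. Nearest to Anxa3 were Vim (0.117), the intermediate filament gene, Cd300lf (0.193) and Fn1 (0.199), and nearest to Anxa4 were Tbxas1 (0.0559), Gpr183 (0.104) and Tgfbr2 (0.106). Anxa5 was nearest to Cyb5r1 (0.0542), Anxa6 to Hbb-b2 (0.0288) and Anxa7 to Capn2 (0.0788), a calpain. By this measure genes that change little lie close to each other. The group means of Anxa6 spread by 0.0683 (root mean square) about their own mean, against 1.42 for Anxa3. S100a6 was nearest to Pdpn (0.0877), Mmp19 (0.138) and Eif4ebp1 (0.183), and S100a10 to Actn1 (0.0983), Pim1 (0.106) and Plaur (0.109). Among the members themselves the closest pairs were Anxa2 with S100a6 (0.268), Anxa7 with S100a10 (0.302) and Anxa2 with S100a10 (0.330).

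Of the rest of the annexin family, Anxa8, Anxa9, Anxa10 and Anxa13 stayed under the filter in the arrays, and Anxa11 was named alone by no probe set. Of 14 other S100 genes, 11 were on the array and 7 were tested, with 3, 4 and 3 higher and 1 lower at each time in WT, and 3, 4 and 3 higher and 1, 1 and 0 lower in KO. Of all tested probe sets, 24%, 26.1% and 21.8% were higher and 28.9%, 35.7% and 31.7% lower in WT. In KO 20.9%, 28.2% and 19.8% were higher and 23.7%, 36.7% and 27.4% lower. S100a4, which marks fibroblasts and macrophages and binds non-muscle myosin, rose most, from 5.96 ± 0.50 (SD, n = 4) in sham WT to 10.19 ± 0.40 (SD, n = 5) at day 1, 11.24 ± 0.24 (SD, n = 4) at day 3 and 10.25 ± 0.33 (SD, n = 4) at day 7. S100a13 was higher by 0.84, 1.41 and 0.67 in WT and S100a16 by 0.92 and 0.54 at day 1 and day 3, its day 7 difference of 0.11 not being called. S100a1 was higher at day 3 (0.61) and day 7 (1.14) in WT. S100b, the astrocyte and oligodendrocyte S100, was lower in WT by log2 differences of -0.43, -0.62 and -0.27. S100a8 and S100a9, abundant in neutrophils, were not called at any time in either genotype, and S100a8 read 11.95 ± 1.12 (SD, n = 4) in sham WT.

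Of 20 receptors, ligands and regulators of these proteins 17 were on the array and 13 tested. In WT 7, 6 and 7 were higher and 3 were lower at day 1, day 3 and day 7, and in KO 7, 8 and 7 were higher and 2, 3 and 3 lower. The shares of all tested probe sets are those given with the other S100 genes. Ahnak, a giant scaffold bound by the ANXA2 and S100A10 complex, was higher by 2.50, 2.76 and 1.99 in WT. Of the plasminogen system, Plaur, the urokinase receptor, was higher by 1.93, 1.80 and 1.00, and Plat, tissue plasminogen activator, by 0.45, 0.86 and 1.17. Plau, urokinase, was not called at day 1 (0.60) and was higher by at least 1.96 at day 3 and 3.52 at day 7, the sham arrays (2.25 ± 0.06, SD, n = 4) being near the lowest value of the data. Fpr2, a receptor of ANXA1, was higher at day 1 in WT (1.74 ± 0.65, adjusted p = 0.026) and at day 1 and day 3 in KO (2.49 and 1.70). Htr1b, a serotonin receptor that S100A10 brings to the cell surface, was lower by log2 differences of -1.35, -1.91 and -1.49 in WT, and Sri, the calcium sensor sorcin that binds ANXA7, was higher by 0.31, 0.82 and 0.59.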

How the data were processed

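Thoracic spinal cord RNA was measured on 34 Affymetrix arrays. Per the submitters' processing notes the authors computed the deposited log2 values with GCRMA, whose version these notes do not give; the values were used as deposited. Arrays were grouped by title. Of 45101 probe sets, 64 controls were left out and 24573 that reached a log2 value of 4 in 4 or more arrays were tested: 20926 named 1 gene, 568 several and 3079 none in the platform table. A model of 8 group means was fitted with limma 3.58.1 in R 4.3.3 (lmFit, eBayes; 26 residual and 2.62 prior degrees of freedom), with Benjamini-Hochberg adjustment over all tested probe sets and a threshold of 0.05; the fit was tested on simulated data. Labels call the arrays biological replicates, and p-values measure the spread between them. A gene with several probe sets is represented by the one with the highest mean. All member probe sets are accounted for; of other family lists the called genes with the largest differences are named, with the rest of the tested genes where a group is described, and the 3 genes nearest in pattern are named for each member, some left out for length. The members and lists were chosen with earlier results of these data known. Partner differences were compared by exact permutation tests. Same-numbered arrays did not pair: over 56 pairs the correlation of their deviations ran from -0.361 to 0.334 (median 0.0061), and in 0 of 14 comparisons did every pair exceed 0.1. Promoter windows came from RefSeq (GRCm38.p6); protein sequences were not used here. Alternatives were other filters, scalings, array weights, the replicate number as a block, the conflicting labels, and each array left out.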

Additional observations from a re-analysis of the deposited data

Results flagged for a closer look

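Of 80 groups of 4 or 5 arrays (10 probe sets in 8 groups), 6 held an array whose gap to the nearest of the others took up most of the group's range, and chance gives about 1 in 20 groups. In sham KO, the library labelled sham KO replicate 2 read 5.34 for Anxa1 against 8.02 to 8.31 in the other arrays, and 5.71 for the shared probe set of S100a11 against 7.15 to 7.37. In day 1 KO, replicate 1 read 13.5 for S100a6 against 13.02 to 13.05. In day 7 WT, replicate 2 read 9.65 for the shared probe set against 10.05 to 10.12. For Anxa6, sham WT replicate 4 read 6.89 and day 7 WT replicate 1 read 6.77, where the other arrays of each group held 6.75, the repeated value, so a small distance was enough.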

How the results depend on the processing

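Called differences from sham were recomputed 909 times over the 9 genes and the shared probe set: 897 stayed called, 12 were lost and 0 reversed. Of the differences in all comparisons, 68 changed sign in 207 recomputations, none of them called before or after (Anxa1 in sham KO against WT, -0.64, was 0.06 without sham KO replicate 2). Median centring moved log2 differences by -0.028 to 0.007 and quantile normalization by -0.040 to 0.040. With only the compared arrays in the fit, the 7 calls of day 7 against day 3 in WT became 3. With day 1 WT replicates 1 and 2 grouped by source and time, these became 0 and the 4 calls of day 3 against day 1 in WT became 1. Array weights gave 10 for that step, and 1 call in place of 0 for KO against WT in sham and for the mean (for the mean Anxa5, adjusted p = 0.0495). The replicate number as a block gave 1 call in place of 0 for the day 1 to day 3 step between genotypes (Anxa4, 0.95, adjusted p = 0.0386) and moved no other count of calls by over 1.5 times; the numbers did not pair the arrays. With day 7 KO averaged to 1 sample, an alternative added after seeing the data as were the comparisons of steps between genotypes, the 7 calls of day 7 against day 3 in KO became 2, and Anxa7 at day 7 in KO was lost (adjusted p = 0.0645). With 1416762_at for S100a10, also added after seeing the data, the gain of Anxa2 in KO was -0.011 at day 1 and 0.39 at day 3, the latter no longer called. Grouping by source and time also ended the day 1 WT calls of Anxa1 (adjusted p = 0.156) and Anxa4 (0.0631). That grouping counted day 1 WT replicate 2 as sham WT and replicate 1 as day 7 WT. Replicate 2 read 11.70 for Anxa2 and 13.70 for S100a6, where the arrays titled sham WT read at most 9.45 and 10.92. Replicate 1 read 13.74 for S100a6, where the arrays titled day 7 WT read at most 12.77. Leaving out 1 array gave 3 to 7 calls for day 3 against day 1 in WT and 4 to 7 for day 7 against day 3. Signal near the lowest value limits the dim sets of Anxa1, Anxa2 and Anxa6.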
